A study of Mus musculus with 6 samples.

Results

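The clustered protocadherins are cell-surface adhesion proteins of the cadherin superfamily, encoded by the alpha, beta and gamma gene clusters that lie one after another on mouse chromosome 18. Members were all genes whose symbol, taken from the RefSeq accession of an array probe, is an alpha, beta or gamma Pcdh symbol. The array held 35 of them, read by 38 probes, among 21368 genes that could be named in this way. They were 7 of the 14 alpha genes, all 22 beta genes and 6 of the 22 gamma genes of the RefSeq table, and the other 23 genes were not analysed here.

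Epidermis was taken from the tail skin of wild-type C57BL/6 mice, with 3 young and 3 aged samples. The young mice were 8 weeks old. In the aged group replicate 1 was 22 months old, while the other 2 replicates were 25 months old. EDTA was used to part epidermis from dermis, and amplified total RNA carrying the dye Cy3 was read on 1-colour Agilent arrays, with 1 array for each sample. Apart from this difference in age, the labels do not say whether the samples came from separate animals. The p-values reflect only how far these samples scatter, and part of that scatter may be technical.

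Each alpha or gamma gene supplies a variable exon that is joined to constant exons shared by its whole cluster, whereas each beta gene stands alone and lacks such shared exons. Each gene has its own promoter, and the insulator protein CTCF and the cohesin complex link chosen promoters to distant enhancers. In neurons, where these proteins are best known, every cell expresses its own small selection of isoforms. Like isoforms bind one another across cell contacts, and this lets the branches of a neuron recognise and avoid each other. Because probes of alpha and gamma genes may lie in shared exons, and beta genes are close paralogs, the assignment of a signal to 1 gene is uncertain. Where in its transcript each probe binds was not analysed here.

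The arrays were of like quality. The 75th percentile of the signal lay between 230.2 and 300.3 intensity units, between 50.02% and 54.4% of probes were well above background, and no spot was saturated. This flag is the scanner software's own call that a spot exceeds its local background. Values below are log2 signals minus the array's 75th percentile, so a negative value marks a probe dimmer than that percentile. The lowest signal called well above background lay between -5.43 and -4.45 over the 6 arrays. The basal keratins Krt5 and Krt14, which define the tissue, were well above background on all 6 arrays. Transcripts of the Y-linked genes Ddx3y, Eif2s3y and Kdm5d were well above background on replicate 1 of each group alone. Eif2s3y lay at 3.31 on young replicate 1 and 3.43 on aged replicate 1, and between -6.88 and -6.62 on the other arrays. Both groups were thus mixed in this Y-linked signal, and the source of replicate 1 differed in it from replicates 2 and 3. Leaving out both replicates numbered 1 also leaves out the arrays with these 3 transcripts. Of the 2 probes of Uty, also Y-linked, 1 did the same and the other was above background on young replicate 3 as well.

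Transcripts of part of the beta cluster were measurable in tail epidermis. Of the 22 beta genes 11, or 50%, exceeded background in 3 or more of the 6 samples, and 10 of these in all 6. In the alpha cluster this held for 1 of 7 genes, Pcdha8, and in the gamma cluster for 1 of 6, Pcdhga9. The order of the clusters depended on this rule. Against the 95th percentile of the negative control spots, 6 of 6 gamma genes, 16 of 22 beta genes and 1 of 7 alpha genes counted as detected. The share of all named genes detected by that second rule is not given here. Over all named genes the share well above background in 3 or more samples was 66.2%, higher than in each of the clusters. The number of member probes well above background was 14, 14 and 15 on the young arrays and 16, 14 and 15 on the aged arrays, so the groups overlapped.

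**Figure D1:**
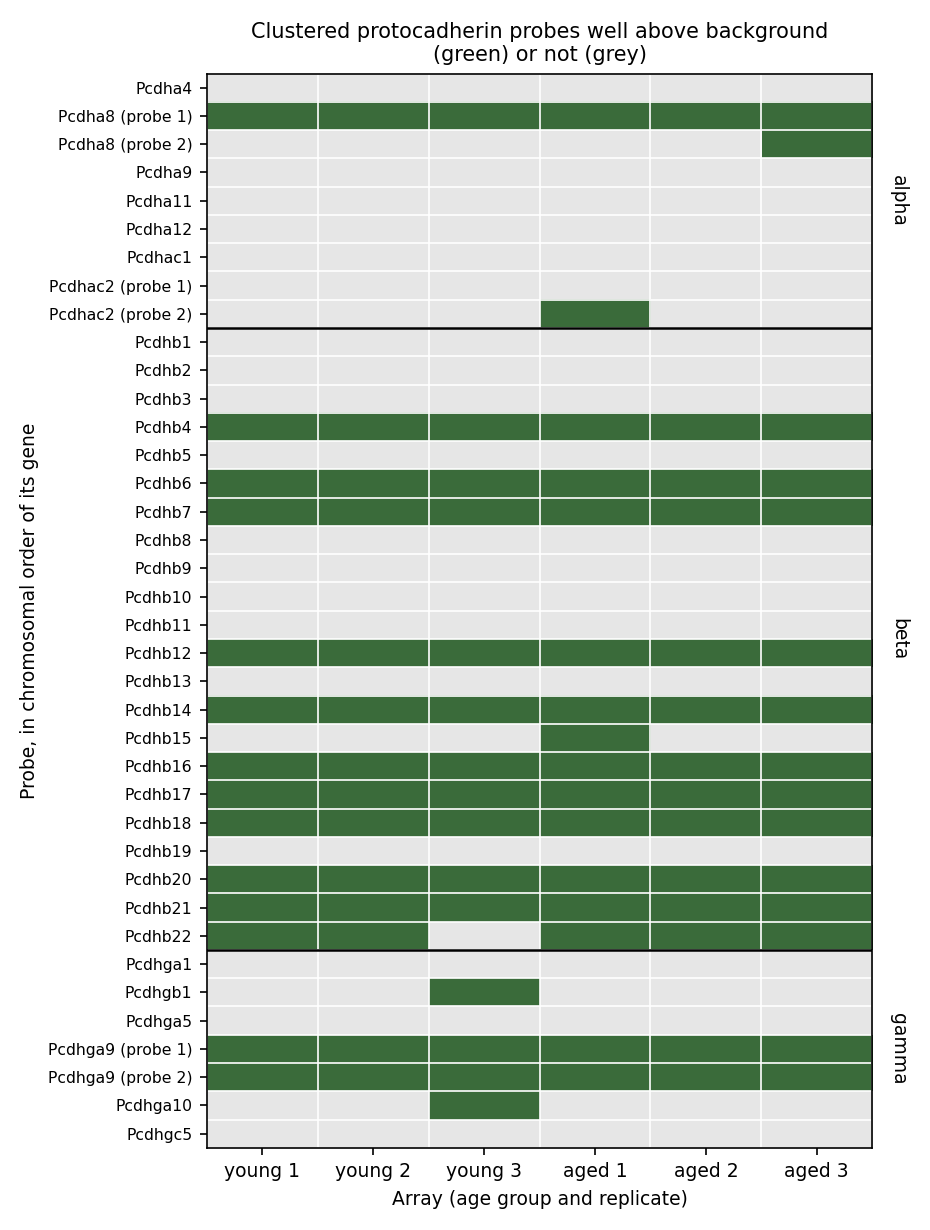
Detection of the 38 probes (rows, in chromosomal order of their genes) on the 3 young and 3 aged arrays (columns). Green cells are well above background and grey cells are not; 11 rows of the beta cluster are green on at least 5 arrays, against 1 row of the alpha cluster and both rows of Pcdhga9 in the gamma cluster.

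In the alpha cluster Pcdha4, Pcdha9, Pcdha11, Pcdha12 and Pcdhac1 were well above background on none of the 6 arrays. Pcdhac2, a C-type isoform, was so on aged replicate 1 alone, at -3.72 with 1 of its 2 probes. Among gamma genes Pcdhga1, Pcdhga5 and Pcdhgc5 were above background on no array, and Pcdhga10 and Pcdhgb1 on young replicate 3 alone, at -4.37 and -4.45. The undetected beta genes were Pcdhb1, Pcdhb2, Pcdhb3, Pcdhb5, Pcdhb8, Pcdhb9, Pcdhb10, Pcdhb11, Pcdhb13 and Pcdhb19. Pcdhb15 was above background on aged replicate 1 alone. These 22 genes have only an upper bound in most arrays and entered no test.

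Detected and undetected beta genes were interspersed along the chromosome, and whether their order differs from a random one was not tested. In the order of the RefSeq table, the 11 tested genes formed 6 runs. Pcdhb4, Pcdhb12 and Pcdhb14 each stood between undetected neighbours, Pcdhb6 and Pcdhb7 lay side by side, and Pcdhb16 to Pcdhb18 and Pcdhb20 to Pcdhb22 formed runs of 3. The largest undetected run was that of Pcdhb8 to Pcdhb11, with 4 genes. Toward the gamma end of the cluster, 7 of the 9 genes from Pcdhb14 to Pcdhb22 were tested. Probes differ in how well they bind, so a grey cell may be a weak probe.

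The comparison of aged with young epidermis placed most measurable beta genes higher in aged epidermis, without any of them passing the threshold across all genes. Of the 13 tested members 0 passed a limma adjusted p of 0.05, where 0.0778% of all 14135 tested genes did (0.0424% in the higher direction), and 8 had an unadjusted p under 0.05. All 8 were beta genes and higher in aged epidermis, against 11.4% of all tested genes that were higher at that unadjusted p. No member was lower at that p, against 6.30% of all tested genes. For the same 8 genes (Pcdhb6, Pcdhb7, Pcdhb12, Pcdhb14, Pcdhb16, Pcdhb17, Pcdhb21 and Pcdhb22) each aged value lay above each young value, which held for 19.5% of all tested genes, and 27.0% were without overlap in either direction. Of the 11 tested beta genes 10 had a positive difference, beside 63.6% of all tested genes, and their median difference was 0.67 log2 units beside 0.09 for all. The other 11 beta genes have no measured difference. In such bulk samples, more cells that express a gene and more RNA per cell cannot be told apart.

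**Figure D2:**
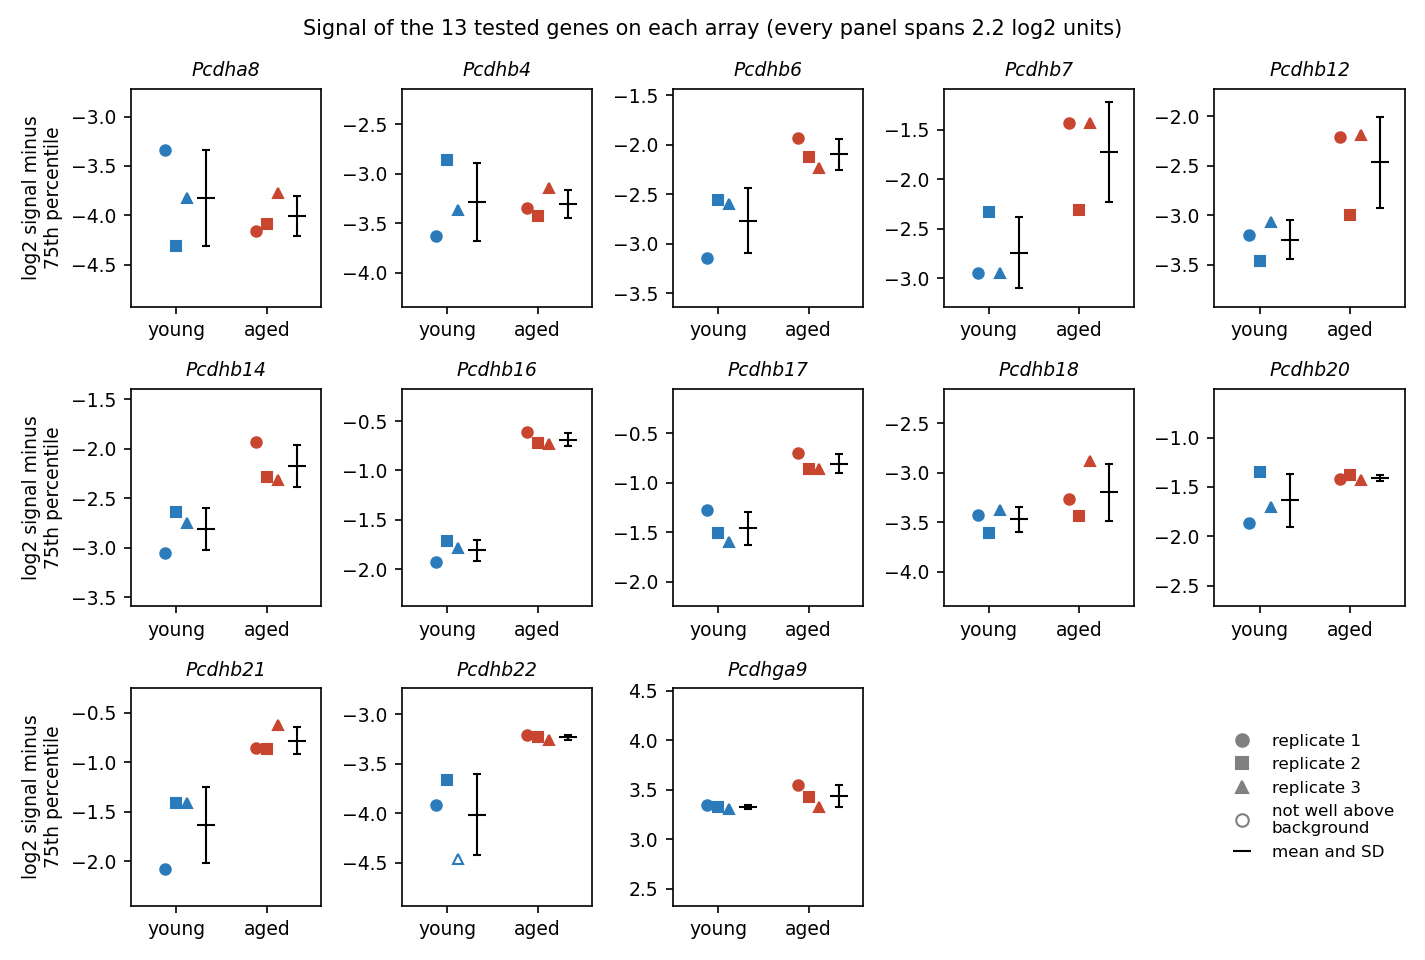
Log2 signal minus the array's 75th percentile (y axis) of the 13 tested genes on the 3 young (blue) and 3 aged (red) arrays; symbols mark the replicate, open symbols were not well above background, and bars give mean and SD. In 8 beta panels the red points all lie above the blue points, most widely for Pcdhb16.

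Pcdhb16 showed the clearest separation. Its young values were -1.93, -1.71 and -1.78, and its aged values were -0.62, -0.72 and -0.74. The 3 values of each group lay close together, and the groups stood far apart for their spread. The mean difference was 1.12 ± 0.11 log2 units (SE, n = 3 arrays per group), or 2.17-fold, with a limma adjusted p of 0.0584. This placed it rank 14 by p among the 14135 genes, just outside the threshold. The call depended on the setting. The adjusted p was 0.0149 without aged replicate 1, where 1.96% of all genes were higher past the threshold, 0.0487 when arrays were scaled to the median, where 0.106% of all genes were higher past the threshold, and 0.0131 with array weights, where 3.89% were. With both replicates numbered 1 left out it was 0.0507, where 0.453% of all genes were higher past the threshold. It was 0.156 with the replicate block and 0.451 with a block for slide row. Over all 17 alternatives the difference lay between 0.76 and 1.19.

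Its chromosomal neighbour Pcdhb17 had young values of -1.27, -1.51 and -1.60 and aged values of -0.70, -0.865 and -0.86. The difference of 0.65 ± 0.13 (limma adjusted p = 0.124) was 1.57-fold, and the groups did not overlap. With array weights, under which 3.89% of all genes were higher past the threshold, its adjusted p was 0.0281. The next gene, Pcdhb18, differed less, by 0.27 ± 0.17 (limma adjusted p = 0.434, 95% interval -0.15 to 0.70). Its young values were -3.42, -3.61 and -3.38 and its aged values -3.27, -3.44 and -2.88, so the groups overlapped, with aged replicates 1 and 3 above all young arrays and aged replicate 2 within their range. The difference was 0.12 without aged replicate 3.

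At the gamma end of the cluster Pcdhb21 and Pcdhb22 were higher in aged epidermis by like amounts. Pcdhb21 had young values of -2.08, -1.42 and -1.41 and aged values of -0.86, -0.87 and -0.63. Young replicate 1 lay well below the other young arrays, and without it the difference of 0.85 ± 0.21 (limma adjusted p = 0.158) was 0.63. Pcdhb22 had young values of -3.91, -3.67 and -4.46, the last not well above background, and aged values of -3.21, -3.23 and -3.26. Its difference was 0.78 ± 0.21 (limma adjusted p = 0.180), and the aged arrays agreed to within an SD of 0.02 while the young SD was 0.41. Because 1 young array had only a bound, the size of this difference is uncertain.

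Pcdhb20, which lies between Pcdhb19 and Pcdhb21, showed no clear difference. Its young values of -1.86, -1.35 and -1.70 enclosed the aged values of -1.41, -1.38 and -1.43. The difference of 0.23 ± 0.16 (limma adjusted p = 0.469) had a 95% interval of -0.15 to 0.61, which takes in both no difference and one nearly as large as that of Pcdhb17. It was 0.11 without young replicate 1 and 0.37 without young replicate 2. Pcdhb4, the first measurable gene of the cluster, had young values of -3.63, -2.86 and -3.37 and aged values of -3.35, -3.43 and -3.15. Its aged values all fell inside the young range, and the difference was -0.02 ± 0.22 (limma adjusted p = 0.968, 95% interval -0.55 to 0.51). The sign of this difference turned under quantile normalization (0.070) and median scaling (0.054).

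In the middle of the cluster Pcdhb6 and Pcdhb7, which adjoin each other, differed by 0.67 ± 0.20 and 1.02 ± 0.30 log2 units (limma adjusted p = 0.192 and 0.198). Pcdhb6 had young values of -3.15, -2.56 and -2.60 and aged values of -1.93, -2.13 and -2.24. All aged arrays stood above all young arrays, and young replicate 1 was again the lowest. Pcdhb7 had young values of -2.95, -2.33 and -2.94 and aged values of -1.43, -2.31 and -1.43. Aged replicate 2 lay next to young replicate 2, and the difference was 1.31 without aged replicate 2.

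Pcdhb12 followed the pattern of Pcdhb7, with aged replicate 2 closest to the young arrays. It had young values of -3.20, -3.46 and -3.07 and aged values of -2.21, -2.9971 and -2.19, a difference of 0.78 ± 0.25 (limma adjusted p = 0.211). Pcdhb14 had young values of -3.05, -2.64 and -2.75 and aged values of -1.93, -2.28 and -2.31. Its difference of 0.64 ± 0.17 (limma adjusted p = 0.176) lay between 0.51 and 0.73 with any 1 array left out.

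**Figure D3:**
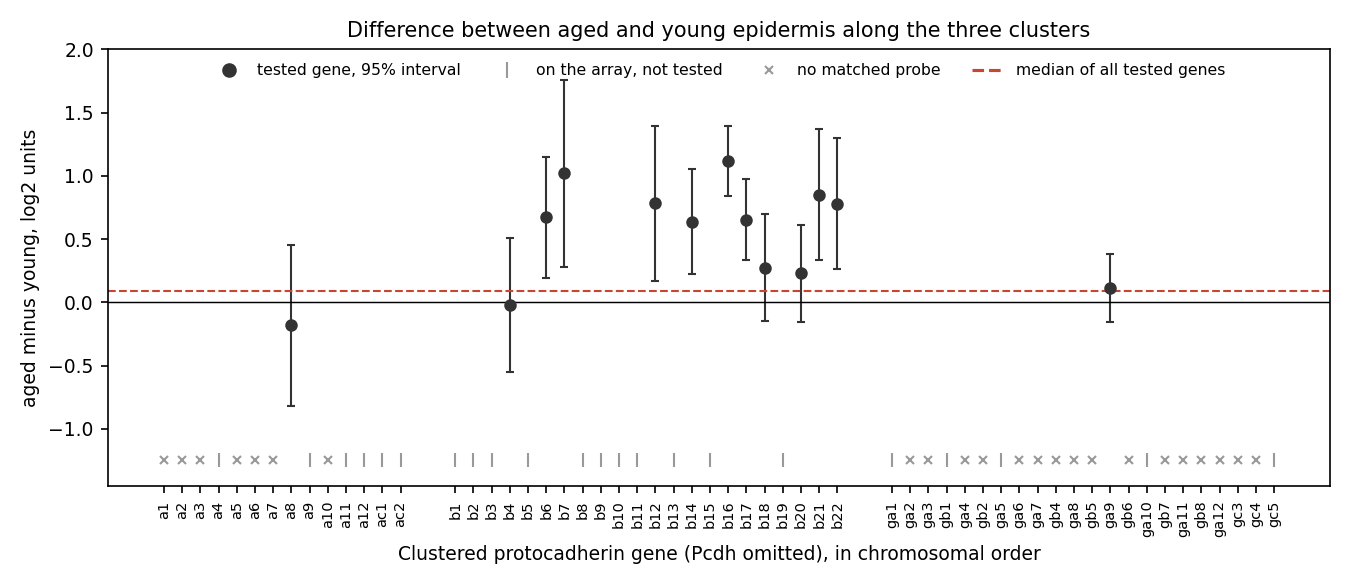
Aged minus young difference in log2 units (y axis) of each tested gene, with its 95% interval, in the chromosomal order of the RefSeq table (x axis); ticks mark genes on the array that were not tested and crosses genes without a matched probe. Of the 13 points, 10 of 11 beta points lie above 0, and Pcdha8 and Pcdhga9 have intervals that include 0.

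The measurable alpha and gamma genes showed no difference beyond their spread. Pcdha8 had young values of -3.34, -4.31 and -3.82 and aged values of -4.15, -4.08 and -3.77. The aged values lay inside the young range, and the difference was -0.18 ± 0.26 (limma adjusted p = 0.741, 95% interval -0.82 to 0.46). This sign turned without young replicate 1 (0.060). A second probe of Pcdha8 was well above background on aged replicate 3 alone, so the 2 probes disagreed on detection.

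Pcdhga9 was read by 2 probes, both well above background on all 6 arrays. The brighter probe, used in the fit, had young values of 3.35, 3.32 and 3.31 and aged values of 3.55, 3.43 and 3.33. Its difference was 0.11 ± 0.11 (limma adjusted p = 0.623), with a 95% interval of -0.16 to 0.38, and the groups overlapped. It was 0.053 without aged replicate 1 and 0.014 under quantile normalization. The other probe had young values of -1.996, -1.74 and -1.67 and aged values of -1.49, -1.95 and -2.09, a difference of -0.04 ± 0.19 (limma adjusted p = 0.930). The probes thus differed in sign, and neither moved beyond its spread. They also differed widely in level, with young means of 3.33 and -1.80. Either probe may lie in exons shared by the gamma cluster, so it is uncertain whether the signal is that of Pcdhga9 alone. Whether the beta difference exceeds that of Pcdha8 and Pcdhga9 was not tested.

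The beta genes also varied by array. The median deviation of the 11 genes from their young mean was -0.21, 0.21 and 0.02 on young replicates 1, 2 and 3 and 0.80, 0.53 and 0.60 on aged replicates 1, 2 and 3. Young replicate 1 held the lowest value for 7 of the 11 genes, where it was lowest for 14.1% of all genes. Aged replicate 1 held the highest value for 5 and aged replicate 3 for 4, where they were highest for 25.0% and 35.5% of all genes. Young replicate 2 held it for the remaining 2, Pcdhb4 and Pcdhb20, and for 10.4% of all genes. On aged replicates 1 and 3 9 genes exceeded every young array, and on aged replicate 2 8 genes did. The share of all genes that did so on a single aged array is not given. It is at least 19.5%, the share that did so on all 3. The median of the 22-month sample was thus the highest of the 6.

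Spread within groups differed from that of other genes. The median SD of the 11 beta genes was 0.26 among young arrays and 0.15 among aged arrays. Over all tested genes it was 0.15 among young arrays and 0.21 among aged arrays. These SDs come from 3 arrays each and were not tested against each other.

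The slide row moved with age, since young replicates 1 and 2 lay in one row and the other 4 arrays in the other row. Within the row that held both groups, which rests on young replicate 3 as its only young array, the median beta difference was 0.61. The median over all tested genes was 0.11 there. All of these differences share that young array, so they are not independent, and the share of all genes with a positive difference is not given. All 11 beta genes then had a positive difference, 4 at an unadjusted p under 0.05, where 3.29% of all genes were higher at that p.

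Genes that control the clusters did not differ past the threshold. Of 25 tested regulators (CTCF, cohesin and its loaders, DNA methyltransferases, TET enzymes and silencers), 0 passed. At an unadjusted p under 0.05 there was 1, where 17.7% of all tested genes had such a p in either direction. The median difference was 0.07 log2 units beside 0.09 for all genes. Stag1, a cohesin subunit gene, differed by 0.49 ± 0.19 (limma adjusted p = 0.255). Ctcf had young values of 2.17, 1.94 and 2.12 and aged values of 2.32, 2.28 and 2.47, a difference of 0.28 ± 0.12 (limma adjusted p = 0.290). Of the 25 regulators 6 were higher without overlap, near the share of 19.5% among all genes. These included Ctcf, Dnmt3b, a DNA methyltransferase gene (0.23 ± 0.11, limma adjusted p = 0.317) and Trim28, which encodes a corepressor (0.25 ± 0.12, limma adjusted p = 0.322).

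Other genes around the clusters were measured as well. Of 21 tested neighbours 0 passed and 17 had a positive difference, beside 63.6% of all tested genes. The median was 0.11. Zmat2, the nearest gene before the alpha cluster, differed by 0.14 ± 0.12 and Diaph1, the nearest after the gamma cluster, by -0.05 ± 0.16 (limma adjusted p = 0.551 and 0.896). Taf7, a gene of the general transcription machinery that lies between the beta and gamma clusters, differed by -0.14 ± 0.13 (limma adjusted p = 0.605). The smallest p among neighbours belonged to Cd14, Ndufa2, Hdac3 and Slc35a4, with differences of 0.32, 0.32, 0.27 and 0.31 (limma adjusted p between 0.225 and 0.343). Hdac3, a histone deacetylase gene, had young values of 1.31, 1.37 and 1.27 and aged values of 1.72, 1.58 and 1.48. Only Cd14 and Ndufa2 of these neighbours had an unadjusted p under 0.05, where 11.4% of all tested genes were higher at that p.

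**Figure D4:**
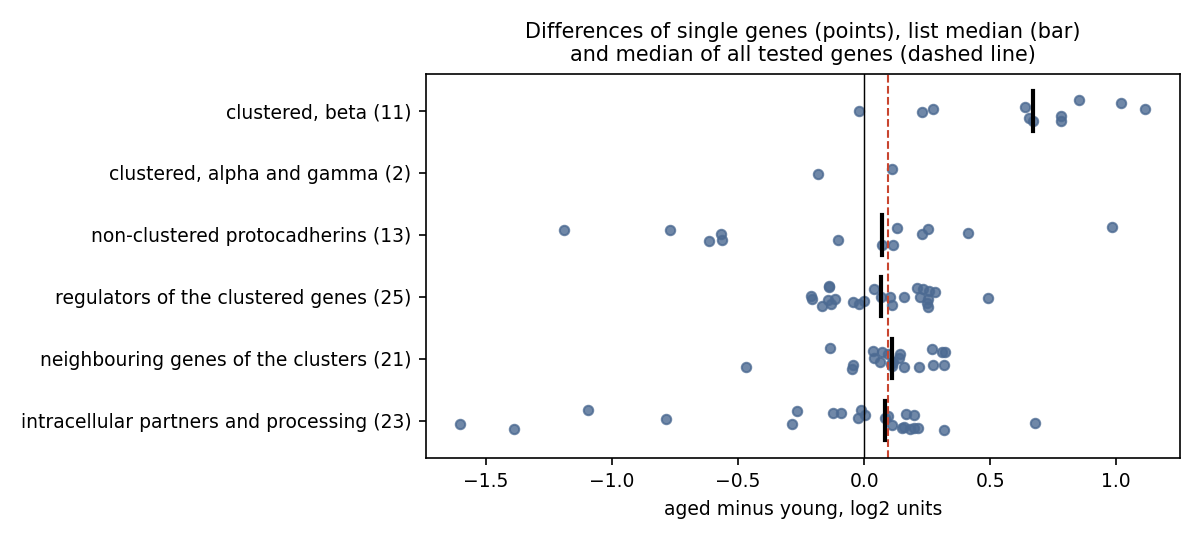
Aged minus young difference in log2 units (x axis) of each tested gene (points) in the beta cluster, the alpha and gamma clusters and 4 related lists, with list medians as bars and the median of all tested genes as a dashed line. The beta median of 0.67 lies to the right of the medians of the 4 related lists, which range from 0.07 to 0.11; the alpha and gamma points lie at -0.18 and 0.11.

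Protocadherins and related large cadherins outside the clusters had no common direction. Of 13 tested genes 7 had a positive difference and 6 a negative one, where 63.6% of all tested genes were positive. The median was 0.07, and 0 were past the threshold. The 4 with the smallest p were Pcdh15, a cadherin of sensory hair cells (-0.61 ± 0.18), Pcdh18 (-1.19 ± 0.48), Pcdh7 (-0.57 ± 0.26) and Cdhr1, a photoreceptor cadherin (0.98 ± 0.53), with limma adjusted p between 0.194 and 0.373. Pcdh15 had young values of -3.22, -3.08 and -2.92 and aged values of -3.91, -3.79 and -3.36, so that each aged array was lower. Pcdh19, named after its values were seen, had an adjusted p of 0.0156 without aged replicate 1, with a difference of -1.22, where 5.72% of all genes passed. Pcdh8, Pcdh9, Pcdh10, Pcdh11x, Fat3 and Fat4 were well above background on no array.

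Among genes listed for binding, processing or signalling inside the cell that is linked to the clustered protocadherins, 0 of 23 passed. A positive difference was seen for 13, beside 63.6% of all tested genes, and the median was 0.08. At an unadjusted p under 0.05, 4 of the 23 were lower and 1 was higher. Among all tested genes 6.30% were lower and 11.4% higher at that p. Wasf1, which encodes a subunit of the actin-regulating WAVE complex, had young values of -2.04, -2.07 and -1.95 and aged values of -3.10, -3.90 and -3.23. Its difference was -1.39 ± 0.22 (limma adjusted p = 0.106), and the groups did not overlap. Cyfip2, another gene of that complex, differed the other way by 0.68 ± 0.15 (limma adjusted p = 0.139). The kinase gene Fyn differed by -0.78 ± 0.16 and the synaptic adhesion gene Nlgn2 by -1.09 ± 0.30 (limma adjusted p = 0.127 and 0.181). Without aged replicate 1 Wasf1, Nlgn2 and the receptor gene Ret passed, all lower, with adjusted p of 0.0216, 0.0104 and 0.0364, in a fit where 5.72% of all genes passed. With array weights 4 partner genes passed, where 7.98% of all genes did. The protease gene Adam10, whose product cleaves clustered protocadherins, differed by 0.00 ± 0.18 (limma adjusted p = 0.993).

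**Figure D5:**
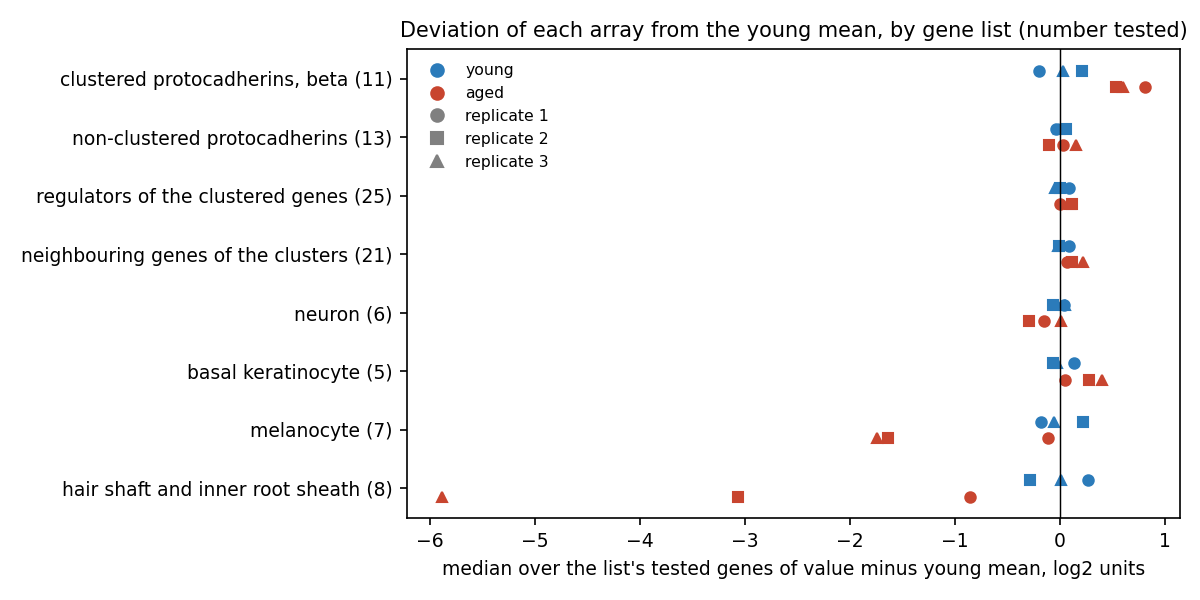
Deviation from the young mean, as the median over each list's tested genes in log2 units (x axis), on the 3 young (blue) and 3 aged (red) arrays. The beta genes have aged medians of 0.53 to 0.80, all above the young medians, while melanocyte and hair lists reach -1.74 and -5.88 on aged arrays.

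Markers of other cell types were examined beside the beta genes, and their part in the beta difference was not tested. Of 10 neuron markers 6 were tested, 1 with a positive difference, and their summed relative signal was 21.9 to 23.2 on young and 16.9 to 22.3 on aged arrays. Stmn2, Gap43, Nefl and Nefm were well above background on no array. Of the Schwann cell and nerve markers 8 of 10 were tested, 4 with a positive difference, with sums of 44.6 to 57.4 on young and 43.4 to 49.4 on aged arrays, and Cdh19 was well above background on no array. All 5 basal keratinocyte markers had a positive difference, with a median of 0.26 and sums of 840.0 to 904.3 on young and 902.9 to 1099 on aged arrays. The hair and melanocyte markers went the other way: all 8 and all 7 tested had a negative difference. The hair sum was 730.6 to 1056 on young and 17.2 to 557.1 on aged arrays, and the melanocyte sum 15.0 to 19.1 and 5.17 to 13.8. By median, both lists were lowest on aged replicates 2 and 3, while the beta genes were highest on aged replicate 1.

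Other marker lists were examined in the same way. Of 4 tested fibroblast markers the collagen genes Col1a1 (-2.95 ± 0.18, limma adjusted p = 0.0283) and Col3a1 (limma adjusted p = 0.0467) fell. In aged epidermis 0 of 3 arrays had Col3a1 well above background, and it was at least 5.14-fold lower there, taking the lowest signal called above background on an array, or the probe's own if higher, as its bound. Of the remaining fibroblast markers, Col1a2 differed by -2.08 ± 0.35 and Dcn the other way by 0.21 ± 0.80 (limma adjusted p = 0.111 and 0.911). The fibroblast list had a median difference of -2.24 and sums of 5.30 to 8.15 on young and 2.51 to 20.6 on aged arrays. All 6 Langerhans and dendritic markers were tested and 5 had a negative difference, with sums of 11.1 to 15.2 on young and 4.05 to 13.3 on aged arrays. Of T cell markers 3 were tested, with sums of 2.38 to 3.64 on young and 3.96 to 10.2 on aged arrays. Of these only Thy1 was higher without overlap, with young values of 1.28, 0.33 and 0.75 and aged values of 1.46, 3.17 and 2.54 (limma adjusted p = 0.192). Cd3e differed by 0.07 ± 0.10 and Cd3g the other way by -0.97 ± 0.73, and both overlapped. Cd2 and Cd3d were well above background on no array, so the list had no common direction. The 3 tested Merkel cell markers had sums of 0.388 to 0.648 on young and 0.294 to 0.571 on aged arrays, and Krt20, Piezo2, Isl1 and Sox2 were well above background on no array. Suprabasal keratinocyte markers, 5 of 5 tested, had a median difference of 0.02, and their sums of 1948 to 2001 on young arrays lay within the 1853 to 2046 of aged arrays. The 2 endothelial and 3 muscle markers tested had medians of -0.22 and -0.37. Both collagen calls were lost with the replicate block (adjusted p = 0.153 for each), with a block for slide row (0.394 for each) and without any 1 of the 3 young arrays or of aged replicates 2 and 3. The calls of Col1a1 and Col3a1 were also lost under normexp (adjusted p = 0.0534 and 0.103) and without a filter on dim probes (0.0722 and 0.116). That of Col3a1 was lost under quantile normalization too (0.0637). Besides Col1a1 and Col3a1, 0 marker genes passed the limma threshold. At an unadjusted p under 0.05 the marker lists had 1 further fibroblast, 7 hair, 4 melanocyte and 1 Langerhans gene lower, and 1 T cell and 1 basal keratinocyte gene higher. Among all tested genes 6.30% were lower and 11.4% higher at that p.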

How the data were processed

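The 6 arrays shared 1 slide and 1 scan, and the file headers name Agilent Feature Extraction 11.5.1.1. The deposited processed signal is a linear intensity that, per the file headers, was corrected for background and spatial trend inside an array, with no scaling across arrays. The deposited table of log2 values followed the log2 signal scaled to the 75th percentile and centred on each probe's median (r of at least 0.9999 per array), with column medians from -0.02 to 0.07. Scanner flags (0 or 1, a category other than a measured unit) were used as deposited.

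Here log2 processed signals were scaled to each array's 75th percentile, without control and outlier spots. Probes were named by RefSeq accession through a GRCm38.p6 table. Coordinates are not given, as the files use mm9. A probe was tested if well above background on at least 3 arrays, and a gene was represented by its brightest tested probe. Aged and young were compared with limma 3.58.1 in R 4.3.3 (lmFit, eBayes, two-sided), with Benjamini-Hochberg adjustment over 25066 features and a threshold of 0.05; the code was tested on simulated data. With 3 against 3 arrays, the smallest p of an exact two-sided permutation test is 0.1, and that test was not used. Members and lists were chosen with earlier results of these data known. Named were all tested members, and of each list the members past the threshold and up to 4 by unadjusted p; Zmat2, Diaph1, Taf7 and Adam10 were named after their values were seen, as were Pcdh19 and Ret. Same-numbered samples of the 2 groups deviated together (r of 0.414, 0.259 and 0.102 across features), each above the limit of 0.1 set for treating title numbers as pairs. Unlike numbers correlated between -0.372 and 0.286, the last for young replicate 2 with aged replicate 3, and the labels do not say what the numbers share. The normexp alternative used the spot median, and array weights were fitted gene by gene because the default iteration did not converge.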

Additional observations from a re-analysis of the deposited data

Results flagged for a closer look

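3 probes that entered no test were well above background on an aged array and on no young array. The second probe of Pcdha8 had a log2 signal of -3.56 on aged replicate 3, beside -6.97 to -6.67 on the young arrays. A probe of Pcdhac2 had -3.72 on aged replicate 1, beside -7.08 to -5.87 on the young arrays. Pcdhb15 had -3.49 on aged replicate 1, beside -5.71 to -4.85 on the young arrays. Its other aged values of -4.52 and -4.32 also lay above all young values, without being called above background. Each of these genes had 1 spot per probe. Their spots were not marked as outliers on these arrays. Pcdhb3 was printed as 10 spots. On young replicate 1 and aged replicates 1 and 2, 1 of its 10 spots was well above background, at -2.78, -4.46 and -3.99. That spot was marked as an outlier, and the mean of the spots not so marked lay between -7.01 and -6.73 there. Whether the signals of the 3 probes above come from stray spots was not tested.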

How the results depend on the processing

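The count of members past the threshold was 1 with scaling to the median (0.149% of all genes passed), 2 with array weights (7.98%) and 0 to 1 with each array left out (1 without aged replicate 1, 5.72%). The replicate block changed no call of a member, though it took the count over all genes from 11 to 0. With that block 0 members passed and 8 beta genes were higher at an unadjusted p under 0.05. The share of all genes higher at that p was close to the 11.4% of the fit without a block. With the slide row as a block, 4 beta genes were higher at an unadjusted p under 0.05, where 3.29% of all genes were. With each array left out 7 to 8 beta genes were. The share of all genes then ranged from 5.37% without young replicate 2 to 14.2% without aged replicate 1. Such beta genes numbered 6 under normexp (14.4% of all genes), 6 with array weights (19.5%) and 6 without both replicates numbered 1 (16.3%). Beta genes without overlap numbered 6 under normexp (19.5% of all genes) and 8 to 9 with each array left out (at least 21.6%). Without both replicates numbered 1 they numbered 8, where 46.7% of all genes were higher without overlap. The median beta difference was 0.30 under normexp with an offset of 50, beside 0.08 for all genes, and 0.60 to 0.73 with each array left out. Detection on at least 1 array counted 2 alpha and 3 gamma genes. Signals above the 95th percentile of negative controls counted 6 gamma, 16 beta and 1 alpha gene, and the share of all genes by these 2 rules is not given. Partner genes past the threshold numbered 4 with array weights (7.98% of all genes passed) and 0 to 3 with each array left out. They numbered 3 without aged replicate 1 (5.72% of all genes) and 1 without both replicates numbered 1 (1.52%). Of non-clustered protocadherins 1 passed with array weights, and 0 to 1 with each array left out (1 without aged replicate 1). Pcdha8 turned to 0.13 without both replicates numbered 1, and with each array left out it lay between -0.43 and 0.060 (without young replicate 1). Pcdhb4 turned to 0.070 (quantile normalization), 0.054 (median scaling) and 0.061 (slide row), and lay between -0.19 and 0.19 with each array left out, including 0.00034 without aged replicate 1 and 0.04 without aged replicate 2. The cause of these changes was not tested. Precision is limited by 3 arrays per group and by dim signals: the lowest signal well above background was -5.43 to -4.45, and Pcdhb22 lay at -4.46 on young replicate 3.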
